A study of Mus musculus with 12 samples.

Results

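The transcripts described here are 10 mouse genes that have been reported among those that are more abundant in haematopoietic stem cells (HSCs) of old animals: Aldh1a1, Gpr183, Sbspon, Nupr1, Ehd3, Fhl1, Neo1, Alcam, Osmr and Wwtr1. They were taken by gene symbol from a table of 35869 genes, each symbol matched 1 row, and all 10 passed the filter on low counts that left 19395 genes to test. RNA was sequenced from HSCs of mouse bone marrow in 4 groups of 3 libraries, made by crossing genotype with a sort on the surface protein CD41. The knockout (KO) mice carried MxCre1+/-,RUNX1f/f, that is the Mx driver, which interferon switches on in many tissues, with a Runx1 gene flanked by loxP sites. The controls (WT) were MxCre1-/-,RUNX1f/f, so they held the same floxed gene without the recombinase. KO and WT mice alike had been injected 4 times with poly(I:C), an RNA mimic that induces interferon, and cells were taken 4 weeks after injection. Cells were sorted as CD41pos or CD41neg HSCs, and the groups are CD41pos KO (libraries 1, 2 and 3), CD41pos WT (1, 3 and 4), CD41neg KO (1, 2 and 3) and CD41neg WT (2, 3 and 4). The labels give no age of the animals and no other sort marker, so the link to ageing is background and was not measured here.

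HSCs renew themselves and supply all blood lineages, and with age the pool grows while its output shifts towards myeloid cells and platelets. The transcripts that mark old HSCs include many surface and signalling proteins, several of which are shared with megakaryocytes. RUNX1 is a transcription factor that forms a complex with CBFβ, binds the letters TGTGGT and TGCGGT, and is needed when blood stem cells first form and later for megakaryocyte maturation. CD41 is the integrin alpha-IIb chain of platelets and megakaryocytes, and it also marks a platelet-biased share of adult HSCs.

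Of the 10 genes, 9 had promoter sequences in RefSeq (assembly GRCm38.p6, 12 start sites in all), and Sbspon had none. The 250 bases before each start site were searched on both strands for TGTGGT and TGCGGT as RUNX letters and for AGATAA as GATA letters, since these factors are often named together in blood cells. Among 32851 RefSeq mouse promoters 18.6% held TGTGGT or TGCGGT and 9.99% held AGATAA. Of the 12 start sites 1 held RUNX letters and 1 held GATA letters. The first lies upstream of an internal start site of Fhl1 (chrX:56786277-56786526, plus strand) and has TGTGGT at 97 and at 31 bases before the start. The second lies upstream of an internal start site of Aldh1a1 (chr19:20601718-20601960, plus strand, cut before the first annotated exon base), with AGATAA 32 bases before the start. A promoter of Wwtr1 with neither (chr3:57575911-57576160, minus strand) is shown beside them, since this gene had the lowest KO level, as a share of WT, of the 3 genes called in CD41pos cells below. Capitals mark the searched letters.
Fhl1, internal start: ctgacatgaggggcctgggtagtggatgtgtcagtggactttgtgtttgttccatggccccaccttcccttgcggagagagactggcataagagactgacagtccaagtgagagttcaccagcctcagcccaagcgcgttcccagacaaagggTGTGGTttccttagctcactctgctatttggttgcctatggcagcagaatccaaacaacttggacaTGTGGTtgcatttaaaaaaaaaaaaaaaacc
Aldh1a1, internal start: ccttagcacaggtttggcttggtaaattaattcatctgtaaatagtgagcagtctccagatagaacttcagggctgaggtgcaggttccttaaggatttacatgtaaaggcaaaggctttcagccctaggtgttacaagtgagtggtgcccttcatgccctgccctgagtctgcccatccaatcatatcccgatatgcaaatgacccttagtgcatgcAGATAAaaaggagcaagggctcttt
Wwtr1: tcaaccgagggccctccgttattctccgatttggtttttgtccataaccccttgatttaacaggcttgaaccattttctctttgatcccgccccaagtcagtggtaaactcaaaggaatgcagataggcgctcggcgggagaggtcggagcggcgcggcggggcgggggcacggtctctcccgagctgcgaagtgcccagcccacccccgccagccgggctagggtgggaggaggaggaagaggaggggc
A match of 6 letters is a description of these windows, and the absence of one says nothing of binding elsewhere in the gene.

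The libraries held 44108035 to 58946457 counts each. Levels below are CPM, given per library in the order of the library numbers above. CPM is a count divided by a TMM-scaled library size and multiplied by a fixed constant. That size is the library's total over the genes tested times its TMM factor. The labels do not say that each library is a separate animal, so p-values reflect only how these libraries vary, and some of that may be technical. Runx1 itself was higher in KO, with 270, 382 and 325 CPM in CD41pos KO against 159, 141 and 147 CPM in CD41pos WT libraries, and a gene total cannot show the loss of floxed exons. Itga2b, the gene of CD41, measured 1028 to 1268 CPM in CD41pos KO, 551 to 683 in CD41pos WT, 213 to 270 in CD41neg KO and 49.6 to 138 in CD41neg WT libraries. All 11 HSC markers that were checked, Procr, Kit and Mecom among them, were detected in all 12 libraries. Across other cells of the marrow, 10 stromal markers summed to 28.6 to 42.9 CPM in the 6 KO and 188 to 868 CPM in the 6 WT libraries. A set of 8 endothelial markers summed to 156 to 203 CPM in CD41neg WT and to 40.9 to 58.95 CPM in the other 3 groups. Of the stromal markers Lum was at 0 in 5 libraries and no other was at 0 in any, and no endothelial marker was at 0 in any library. The WT libraries of a gate were unlike one another by chi-square per degree of freedom over genes. CD41pos WT 3 was far from WT 1 and WT 4 (230 and 262), which were close to each other (27.6). In the CD41neg gate WT 2 was nearer to WT 3 (70.6) than to WT 4 (101), and WT 3 and WT 4 were at 106. The HSC markers summed to 718 CPM in CD41pos WT 3, against 1513 and 1656 CPM in CD41pos WT 1 and WT 4. CD41pos WT 1 and 4 and CD41neg WT 2 and 4 carry library numbers of at most 6 in the labels, and called results are also given without these 4. That leaves WT 3 alone in each gate, so all spread in that fit comes from the 6 KO libraries, WT 3 is assumed to vary like them, and its p-values are a weak check. Both KO 2 libraries held Xist at 308 to 318 CPM, whereas KO 1 and KO 3 held 0.843 to 1.00 CPM of Xist and 83.4 to 103 CPM of the Y-linked Ddx3y. All 6 WT libraries held Xist, at 113 to 339 CPM. Ddx3y was at 0.035 CPM in CD41pos WT 1 and 0 CPM in CD41neg WT 4. The other WT libraries held 11.2 to 38.9 CPM of Ddx3y beside their Xist. In bulk RNA fewer cells of a type and less RNA per cell cannot be told apart, which holds for every level below.

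All 10 genes had a KO over WT estimate below 0 in both gates, and in each gate 3 of them fell past an adjusted p of 0.05 (edgeR's quasi-likelihood test, Benjamini-Hochberg over all genes tested). In CD41pos HSCs these were Aldh1a1, Gpr183 and Wwtr1, and in CD41neg HSCs Fhl1, Nupr1 and Gpr183. None rose in either gate. Among all genes tested 17.1% were called in CD41pos cells, 7.27% as lower and 9.79% as higher. In CD41neg cells 7.82% were called, 3.97% as lower and 3.85% as higher. The median log2 fold change of the 10 genes was -1.21 in the CD41pos gate (all genes tested, -0.08) and -1.39 in the CD41neg gate (all genes tested, -0.03). A negative estimate was found for 54.7% of all genes in CD41pos and for 51.8% in CD41neg cells. The 10 genes were chosen with earlier results of these data known, so their shared direction is no independent result about ageing-linked genes. The 18 other ageing-linked genes described below had median log2 fold changes of -0.09 in CD41pos and -0.44 in CD41neg cells. By CPM, the 3 KO libraries lay below all 3 WT libraries for 7 of the 10 genes in CD41pos cells (22.4% of all genes). In CD41neg cells they did so for 6 (17.0% of all genes). In the authors' TPM, a level scaled for length, CD41pos WT 3 lay below the KO range for Fhl1 (1.7 against 2 to 2.1). It lay within that range for Gpr183 (1.3 against 0.8 to 1.5) and Alcam (1.6 against 0.3 to 1.7), and met KO 3 for Sbspon (0.2). Aldh1a1, Nupr1 and Wwtr1 stayed apart in CD41pos cells. In CD41neg cells WT 3 met KO 3 for Osmr (0.2). Without CD41pos WT 3, 5 of the 10 were called in CD41pos cells (14.2% of all genes) and 6 in CD41neg cells (19.9% of all genes). Without the 4 low-numbered WT libraries, none of the 10 was called in CD41pos cells (39.4% of all genes) and only Fhl1 in CD41neg cells (8.72% of all genes). Some estimates then stayed close, such as Nupr1 in CD41neg cells at -1.31 and Wwtr1 in CD41neg cells at -1.48, and others moved towards 0, such as Gpr183 in CD41pos cells at -0.54, while Neo1 turned positive in both gates.

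**Figure D1:**
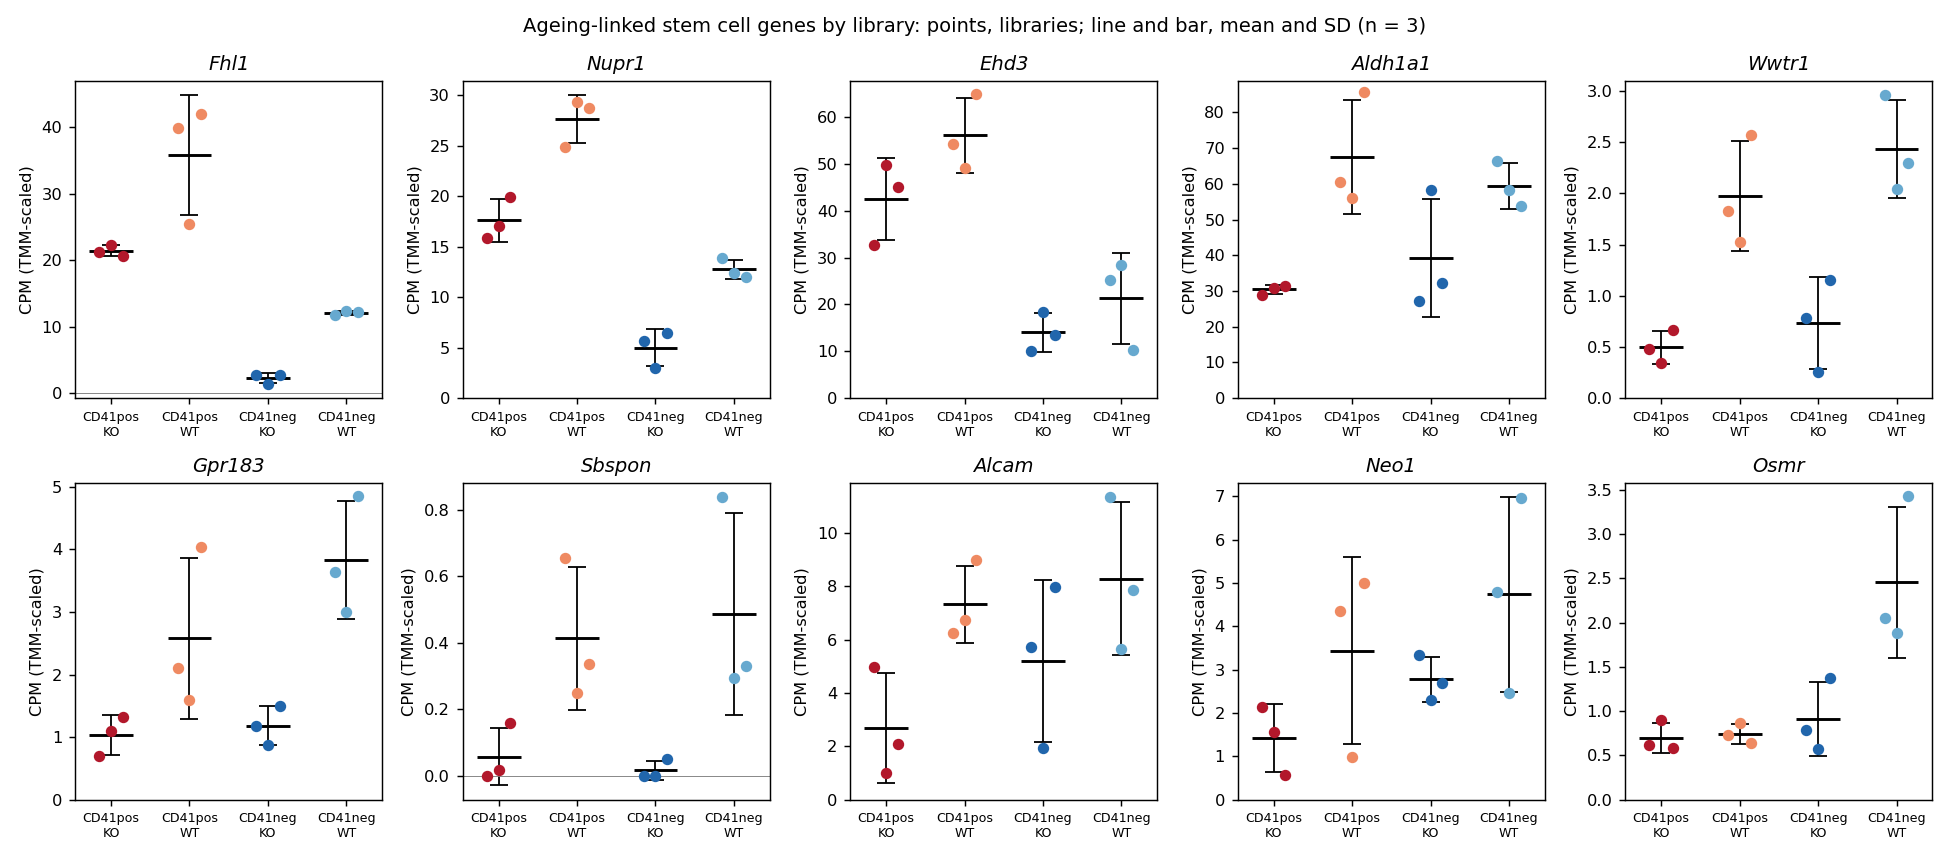
Level of each gene in CPM (TMM-scaled, linear axis) in every library of the 4 groups, with KO left of WT in each gate; points are libraries, and the line and bar give the mean and SD of 3 libraries. Fhl1, Nupr1 and Ehd3 separate the gates, and for Fhl1 and Nupr1 all 4 groups are apart; Wwtr1, Gpr183 and Sbspon separate KO from WT in both gates.

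Levels per length were set side by side as CPM per kilobase of annotated exon (GENCODE vM21), averaged over all 12 libraries. Aldh1a1 led with 9.95 CPM per kilobase, followed by Nupr1 at 6.27, Ehd3 at 5.11 and Fhl1 at 4.82. Alcam at 0.825, Gpr183 at 0.747, Neo1 at 0.355 and Wwtr1 at 0.295 CPM per kilobase formed a lower tier. Osmr at 0.0992 and Sbspon at 0.0889 CPM per kilobase were the lowest. The authors' deposited TPM ranks Fhl1 and Neo1 lower, because its ratio to the counts implies lengths 9.61 and 7.25 times their exon lengths. A gap of over 5-fold was found for 1.29% of 4115 genes, all of high TPM in every library. Fhl1 reached at most 3.9 and Neo1 at most 0.3 TPM, where rounding weighs more, so that share may not apply to them.

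Fhl1 encodes a LIM-only scaffold protein best known from muscle, and it lies on the X chromosome (chrX:56731787-56793346, plus strand, mm10). Of the 10 it had the largest gate difference in KO cells and the largest called loss in KO against WT. Its CD41neg level was 2.68, 1.43 and 2.72 CPM in KO against 11.8, 12.3 and 12.2 CPM in WT libraries. KO libraries were thus far below WT, with a log2 fold change of -2.41 ± 0.26 (SE, adjusted p = 0.00107 by edgeR's quasi-likelihood test). In CD41pos cells it measured 21.2, 22.3 and 20.7 CPM in KO against 39.9, 25.4 and 42.02 CPM in WT libraries. The groups did not overlap there either, but WT 3 was close to the KO range and the estimate of -0.74 ± 0.25 did not pass (adjusted p = 0.0567, edgeR). Without the 4 low-numbered WT libraries it was -2.44 (adjusted p = 0.00899, edgeR) in CD41neg and -0.17 (adjusted p = 0.719, edgeR) in CD41pos cells, and without CD41pos WT 3 the CD41pos estimate passed at -0.91 (adjusted p = 0.0213, edgeR). The Fhl1 start site printed above with TGTGGT at both places belongs to this gene, and the files do not tell from which start site its reads came.

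Nupr1 encodes a small nuclear protein induced by cell stress and lies at chr7:126623249-126630861 on the minus strand. CD41neg libraries held 5.62, 2.96 and 6.43 CPM in KO against 13.9, 12.4 and 12.03 CPM in WT libraries. All KO libraries were lower, by a log2 fold change of -1.35 ± 0.25 (adjusted p = 0.0108, edgeR). In CD41pos cells it measured 15.8, 17.0 and 19.96 CPM in KO against 24.9, 29.3 and 28.8 CPM in WT libraries. These groups were apart as well, with an estimate of -0.65 ± 0.25 that did not pass (adjusted p = 0.0824, edgeR). It passed in 4 of 26 alternatives, including the level of Y-linked transcripts as a covariate (-0.75, adjusted p = 0.0373, edgeR). Without the 4 low-numbered WT libraries the CD41neg estimate was -1.31 (adjusted p = 0.0680, edgeR). Of 11 other genes of the amino acid and ER stress response, 1 rose and 1 fell in CD41pos, and 1 rose and 2 fell in CD41neg KO cells. Of all genes, 9.79% rose and 7.27% fell in CD41pos, and 3.85% rose and 3.97% fell in CD41neg KO cells. Counts this small are no result about the list, and the counts of the lists below are to be read beside the same shares. Ppp1r15a, which restarts translation after stress, was higher in both gates (log2 0.87 ± 0.20 and 0.95 ± 0.20, adjusted p = 0.0136 and 0.0169, edgeR). Asns, the asparagine synthetase, was lower in both (log2 -0.67 ± 0.21 and -0.92 ± 0.21, adjusted p = 0.0449 and 0.0233, edgeR).

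Ehd3 encodes an EH-domain ATPase of endocytic recycling and lies at chr17:73804134-73832094 on the plus strand. It measured 32.7, 49.8 and 45.1 CPM in CD41pos KO against 54.2, 49.1 and 65.0 CPM in CD41pos WT libraries. In CD41neg cells it measured 10.1, 18.4 and 13.5 CPM in KO against 25.3, 28.5 and 10.3 CPM in WT libraries. KO and WT overlapped in both gates, and neither estimate passed (log2 -0.40 ± 0.33, adjusted p = 0.408, and -0.61 ± 0.33, adjusted p = 0.269, edgeR). Among 7 relatives of the EHD and FHL families and partners of ALCAM, 1 fell in each gate and none rose. Of all genes 7.27% fell in CD41pos and 3.97% in CD41neg cells, so 1 gene is no result about the list. The gene that fell was Fhl2, another LIM-only scaffold, at log2 -2.39 ± 0.51 in CD41pos and -3.31 ± 0.54 in CD41neg cells (adjusted p = 0.0107 and 0.00661, edgeR).

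Between the gates, Fhl1, Nupr1 and Ehd3 were higher in CD41pos than in CD41neg HSCs in both genotypes, and no other gene of the 10 was higher in either. Among all genes tested 2.79% were called between the gates in KO (1.56% higher, 1.23% lower) and 5.59% in WT cells (2.72% higher, 2.87% lower). In KO cells the log2 fold change of CD41pos over CD41neg was 3.23 ± 0.27 for Fhl1, 1.82 ± 0.25 for Nupr1 and 1.6 ± 0.34 for Ehd3 (adjusted p = 7.72e-05, 0.00253 and 0.0255, edgeR). In WT cells it was 1.57 ± 0.25 for Fhl1, 1.12 ± 0.25 for Nupr1 and 1.39 ± 0.34 for Ehd3 (adjusted p = 0.00508, 0.0231 and 0.0331, edgeR). All 3 CD41pos libraries lay above the 3 CD41neg libraries for these genes in each genotype, as they did for 15.7% of all genes in KO and 11.4% in WT cells. Gpr183, Wwtr1, Alcam and Sbspon did not pass between the gates in either genotype, with estimates of log2 -0.95 (Alcam) to 1.63 (Sbspon) in KO and -0.57 (Gpr183) to -0.18 (Alcam) in WT cells. By group mean the order from high to low was CD41pos WT, CD41pos KO, CD41neg WT and CD41neg KO for all 3 genes. For Fhl1 and Nupr1 no neighbours in this order overlapped in CPM, whereas for Ehd3 KO and WT overlapped within each gate.

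The KO libraries of the same number deviated from their group means together across the gates, and each number is read here as a pair by its label. The ratio of CD41pos to CD41neg CPM was 7.91, 15.6 and 7.61 for Fhl1 in KO 1, 2 and 3. For Nupr1 it was 2.81, 5.76 and 3.11, and for Ehd3 3.25, 2.70 and 3.33. All 9 ratios were above 1, which had to follow from the lack of overlap between the gates given above. Those of Fhl1 and Nupr1 were highest in KO 2, the pair with Xist. With the library label as a replicate block over all 12 libraries Ehd3 lost its call in KO cells (adjusted p = 0.0931, edgeR), and within the KO libraries alone all 3 genes kept theirs. In WT cells the same block ended all 4 calls, Osmr below included. WT 1 and WT 2 occur in a single gate each, so this block compares only WT 3 and WT 4. Libraries of those numbers did not deviate together across the gates (r = 0.11 and -0.51), so the lost calls say little of the WT gate differences. The WT 4 libraries were also unlike in Ddx3y, at 22.5 CPM in CD41pos and 0 CPM in CD41neg cells. By the labels' library numbers, 1 (CD41pos WT 1) and 2 (CD41neg WT 4) held 0.035 and 0 CPM. Numbers 5 and 6 (CD41pos WT 4, CD41neg WT 2) held 22.5 and 19.4 CPM, and 9 and 10 (both WT 3) 11.2 and 38.9 CPM. A pairing of WT by library number was not tested. Without the 4 low-numbered WT libraries the WT estimates were 0.98 for Fhl1, 1.18 for Nupr1, 0.72 for Ehd3 and -1.19 for Osmr. The 8 megakaryocyte and platelet markers, Itga2b among them, summed to 1737 to 2041 CPM in CD41pos KO, 1224 to 1363 in CD41pos WT, 391 to 489 in CD41neg KO and 195 to 257 in CD41neg WT libraries. Across the 12 libraries their sum correlated at r = 0.76 with Ehd3, 0.56 with Fhl1 and 0.54 with Nupr1 on a log scale, and their part in the gate difference was not tested.

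**Figure D2:**
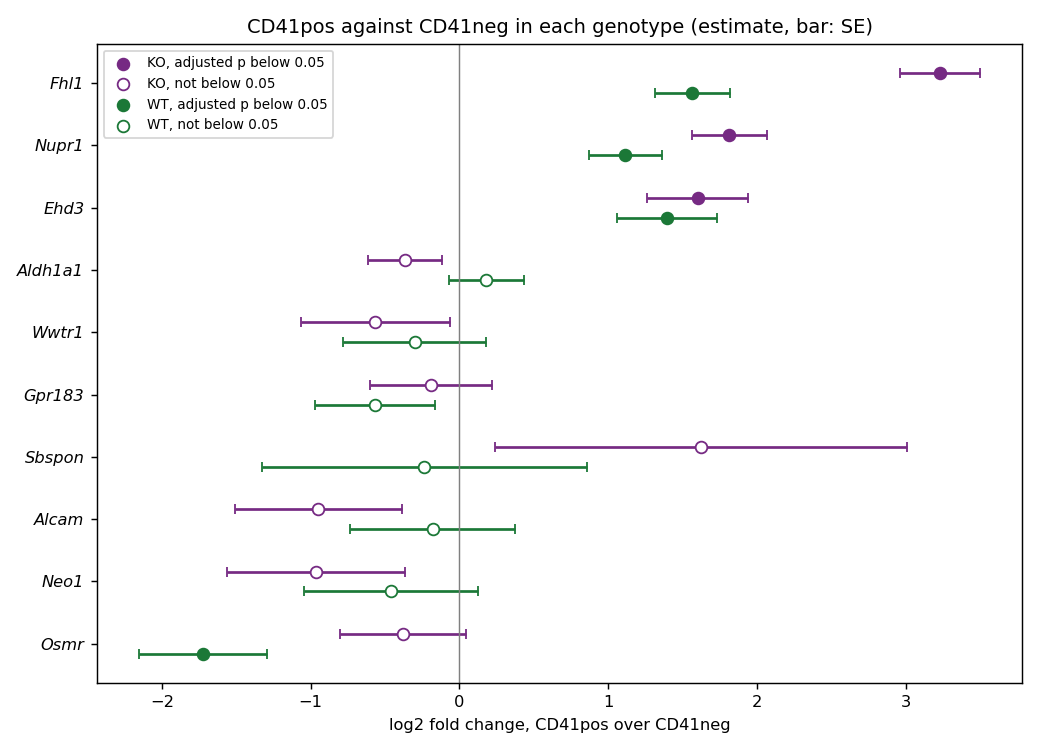
Log2 fold change of CD41pos over CD41neg for each gene in KO (upper point of each pair) and WT (lower point), with SE as bars; filled points have an adjusted p below 0.05 in edgeR's quasi-likelihood test. Fhl1, Nupr1 and Ehd3 are filled on the right in both genotypes, and Osmr is filled on the left in WT only, a difference between genotypes that did not pass its own test.

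Aldh1a1 encodes a retinaldehyde dehydrogenase, which makes retinoic acid and also clears reactive aldehydes. It lies at chr19:20492715-20643465 on the plus strand beside its near-identical copy Aldh1a7, so the split of reads between both genes is uncertain. In CD41pos cells it measured 28.9, 30.9 and 31.5 CPM in KO against 60.6, 56.1 and 85.6 CPM in WT libraries. KO libraries were close together and below WT, at a log2 fold change of -1.15 ± 0.25 (adjusted p = 0.0121, edgeR). Its CD41neg level was 27.3, 58.1 and 32.2 CPM in KO against 66.3, 58.4 and 53.7 CPM in WT libraries. KO 2 stood inside the WT range, and the estimate of -0.60 ± 0.25 did not pass (adjusted p = 0.153, edgeR), while without that library it was -1.0 (adjusted p = 0.0254, edgeR). The CD41pos call was lost without CD41pos KO 2 (-1.16, adjusted p = 0.0514, edgeR) and without the 4 low-numbered WT libraries (-0.80, adjusted p = 0.116, edgeR). Between the gates Aldh1a1 did not pass in either genotype (log2 -0.37 ± 0.25 in KO and 0.18 ± 0.25 in WT cells).

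The other retinoid genes included 4 that fell and 1 that rose in CD41pos KO cells and 4 that fell with none that rose in CD41neg KO cells, of 14 tested. Their median log2 fold change was -1.27 in the CD41pos gate and -0.91 in the CD41neg gate. Aldh1a7 fell in both gates, by log2 -1.37 ± 0.28 and -1.01 ± 0.27 (adjusted p = 0.00943 and 0.0437, edgeR). Rxrb, a retinoid X receptor, fell to 95.8 ± 4.05 CPM in CD41pos KO against 162 ± 17.9 CPM in CD41pos WT cells (SD, n = 3 each). Dhrs3, which reduces retinaldehyde back to retinol, fell to 5.19 ± 2.30 CPM in CD41pos KO against 20.5 ± 2.68 CPM in CD41pos WT cells, and the gene that rose there, named after its values were seen, was Rxra, another retinoid X receptor (log2 0.95 ± 0.30, adjusted p = 0.0487, edgeR). Cyp26b1, which breaks retinoic acid down, fell in CD41neg KO cells, at 0.0455 ± 0.0519 CPM against 1.59 ± 0.334 CPM in WT (adjusted p = 0.00786, edgeR). Aldh1a7 also differed between the gates where Aldh1a1 did not pass, with log2 -1.95 ± 0.29 in KO and -1.6 ± 0.28 in WT cells (adjusted p = 0.00315 and 0.00817, edgeR).

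Wwtr1 encodes TAZ, the partner of YAP that carries Hippo pathway output to TEAD factors, and lies at chr3:57455649-57575910 on the minus strand. In CD41pos cells it measured 0.474, 0.341 and 0.667 CPM in KO against 1.83, 1.52 and 2.57 CPM in WT libraries, which is 26, 19 and 38 counts against 103, 67 and 153 counts. KO libraries were at 25.0% of the WT mean, with a log2 fold change of -1.99 ± 0.51 (adjusted p = 0.0219, edgeR). CD41neg libraries held 0.784, 0.258 and 1.16 CPM in KO against 2.96, 2.04 and 2.29 CPM in WT libraries. These groups did not overlap, and the estimate of -1.73 ± 0.50 missed the threshold (adjusted p = 0.0536, edgeR). It passed in 5 of 26 alternatives, including Y-linked level as a covariate (-2.07, adjusted p = 0.0233, edgeR). The CD41pos call was lost without CD41pos KO 1 or KO 2 (adjusted p = 0.0694 and 0.0924, edgeR) and without the 4 low-numbered WT libraries (-1.53, adjusted p = 0.144).

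Of 17 other Hippo genes tested, 6 rose and 1 fell in CD41pos and 2 rose and 1 fell in CD41neg KO cells. The kinase gene Lats1 was higher in both gates, at 44.8 ± 3.13 CPM in CD41pos KO against 22.2 ± 6.22 CPM in CD41pos WT cells and at 40.4 ± 4.64 CPM in CD41neg KO against 21.7 ± 5.56 CPM in CD41neg WT cells. Mob1b, a LATS coactivator, was higher in CD41pos KO cells (log2 1.53 ± 0.31, adjusted p = 0.00872, edgeR). Stk4, the MST1 kinase, was higher in CD41neg KO cells (log2 0.74 ± 0.21, adjusted p = 0.0481, edgeR). Tead2, a DNA-binding partner of TAZ, fell in CD41pos KO cells to 1.22 ± 0.289 CPM against 7.80 ± 1.07 CPM in WT cells (adjusted p = 0.00273, edgeR). Amotl2, a scaffold that holds YAP and TAZ at junctions, fell in CD41neg KO cells to 1.06 ± 0.801 CPM against 7.14 ± 1.15 CPM in WT cells (adjusted p = 0.0145, edgeR).

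Gpr183 encodes EBI2, a receptor that guides cells towards oxysterols, and lies at chr14:121952551-121965195 on the minus strand inside Ubac2, with which it shares no exon base. In CD41pos cells it measured 0.693, 1.09 and 1.32 CPM in KO against 2.11, 1.59 and 4.03 CPM in WT libraries. In CD41neg cells it measured 1.18, 0.877 and 1.5 CPM in KO against 3.64, 3.0 and 4.86 CPM in WT libraries. KO lay below WT in both gates, with log2 fold changes of -1.32 ± 0.41 and -1.69 ± 0.41 (adjusted p = 0.0466 and 0.0314, edgeR). It was the only gene of the 10 called in both gates, and also the call that depended most on the fit. It passed in 6 of 26 alternatives in CD41pos and 14 of 26 in CD41neg cells. With Y-linked level as a covariate Gpr183 passed in CD41neg (-1.74, adjusted p = 0.0389, edgeR) but not in CD41pos cells (-1.34, adjusted p = 0.0532, edgeR). Without the 4 low-numbered WT libraries it was -0.54 for the CD41pos gate (adjusted p = 0.432, edgeR) and -1.34 for the CD41neg gate (adjusted p = 0.125, edgeR). Of 3 enzymes tested that make or break its oxysterol ligands, none passed in CD41pos cells, and Hsd3b7, which degrades the ligand, rose in CD41neg KO cells (log2 0.47 ± 0.12, adjusted p = 0.0390, edgeR).

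Osmr encodes the oncostatin M receptor, which signals with gp130, and lies at chr15:6813577-6874969 on the minus strand. Its CD41neg level was 0.784, 0.568 and 1.38 CPM in KO against 2.05, 1.88 and 3.43 CPM in WT libraries. The groups did not overlap, and the estimate of -1.43 ± 0.43 missed the threshold (adjusted p = 0.0588, edgeR). In CD41pos cells it measured 0.620, 0.896 and 0.579 CPM in KO against 0.727, 0.863 and 0.639 CPM in WT libraries. Here KO and WT overlapped, at log2 -0.09 ± 0.43 (adjusted p = 0.907, edgeR). In WT cells it was the only gene of the 10 that was lower in the CD41pos gate (log2 -1.72 ± 0.43, adjusted p = 0.0383, edgeR, where 2.87% of all genes were called lower). That call was lost in 9 of 12 fits that left out 1 library, with the highest adjusted p, 0.124, without CD41neg WT 4. The CD41neg WT libraries are also those with high endothelial markers, whose sum correlated with Osmr at r = 0.93 over 12 libraries, and the part of these markers in the result was not tested.

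Among 16 other genes of gp130 cytokine signalling 3 rose and 1 fell in CD41pos, and 1 rose and 1 fell in CD41neg KO cells. Of all genes, 9.79% rose and 7.27% fell in CD41pos, and 3.85% rose and 3.97% fell in CD41neg KO cells. The ligand gene Osm rose in both gates, to 52.9 ± 8.26 CPM in CD41pos KO against 18.3 ± 5.12 CPM in CD41pos WT and to 46.6 ± 16.3 CPM in CD41neg KO against 16.7 ± 2.88 CPM in CD41neg WT cells (adjusted p = 0.00474 and 0.00929, edgeR). Jak2, a kinase of cytokine receptors, rose in CD41pos KO cells (log2 1.11 ± 0.29, adjusted p = 0.0232, edgeR). Lifr, the receptor of leukaemia inhibitory factor, was named for its CD41neg value; it was higher in CD41pos KO cells (log2 1.88 ± 0.53, adjusted p = 0.0316) and lower in CD41neg KO cells (log2 -2.20 ± 0.54, adjusted p = 0.0320) by edgeR. Il11ra1, a receptor of interleukin 11, fell in CD41pos KO cells (log2 -0.76 ± 0.18, adjusted p = 0.0154, edgeR).

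Neo1 encodes neogenin, a receptor of netrins and repulsive guidance molecules, and lies at chr9:58874687-59036441 on the minus strand. It measured 2.13, 1.56 and 0.579 CPM in CD41pos KO against 4.35, 0.976 and 4.99 CPM in CD41pos WT libraries. CD41neg libraries held 3.33, 2.30 and 2.70 CPM in KO against 4.79, 2.45 and 6.97 CPM in WT libraries. In each gate WT 3 lay within the KO range and the other 2 WT libraries lay above it, and neither estimate passed (log2 -1.27 ± 0.60 and -0.77 ± 0.59, adjusted p = 0.149 and 0.430, edgeR). Without the 4 low-numbered WT libraries they were 0.63 and 0.18, and without CD41pos WT 3 the CD41pos estimate passed at -1.69 (adjusted p = 0.0462, edgeR). In KO cells Neo1 was also the only gene of the 10 with all CD41pos libraries below the CD41neg ones (14.1% of all genes), at log2 -0.96 ± 0.60 (adjusted p = 0.573, edgeR). Of 7 neogenin ligands and relatives tested, 1 rose in CD41pos KO cells, as did 9.79% of all genes, and none passed in CD41neg cells. The gene that rose was the netrin gene Ntn4, at 17.3 ± 4.29 CPM against 3.99 ± 2.11 CPM in WT (adjusted p = 0.00792, edgeR).

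Alcam encodes CD166, an adhesion molecule of HSCs and of niche cells, and lies at chr16:52248996-52454074 on the minus strand. It measured 4.98, 1.00 and 2.11 CPM in CD41pos KO against 6.24, 6.74 and 8.97 CPM in CD41pos WT libraries. In CD41neg cells it measured 5.72, 1.93 and 7.96 CPM in KO against 11.3, 5.63 and 7.88 CPM in WT libraries. The groups were apart in CD41pos cells and overlapped in CD41neg cells, with KO 2 the lowest library in both gates. Neither estimate passed (log2 -1.44 ± 0.57 and -0.67 ± 0.56, adjusted p = 0.0939 and 0.471, edgeR). The CD41pos estimate passed in 3 of 26 alternatives, including Y-linked level as a covariate (-1.94, adjusted p = 0.0177, edgeR). Without the 4 low-numbered WT libraries it was -1.24.

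Sbspon encodes a secreted protein with somatomedin B and thrombospondin domains and lies at chr1:15853862-15892722 on the minus strand. It had 0, 1 and 9 counts in CD41pos KO against 37, 11 and 20 counts in CD41pos WT libraries. In CD41neg cells it had 0, 0 and 3 counts in KO against 43, 13 and 16 counts in WT libraries. Every KO library was below every WT library of its gate. Summed and scaled for depth, KO held 14.0% of the WT counts in CD41pos (95% exact interval 6.44% to 27.4%) and 3.57% in CD41neg cells (0.718% to 10.8%), where the intervals cover counting error only. With the spread between libraries in the fit neither estimate passed (log2 -2.77 ± 1.21 and -4.63 ± 1.37, adjusted p = 0.125 and 0.0582, edgeR). Gm37509, on the other strand, overlaps 2001 exon bases of Sbspon, and the library kit keeps no strand, so these reads cannot be told apart.

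**Figure D3:**
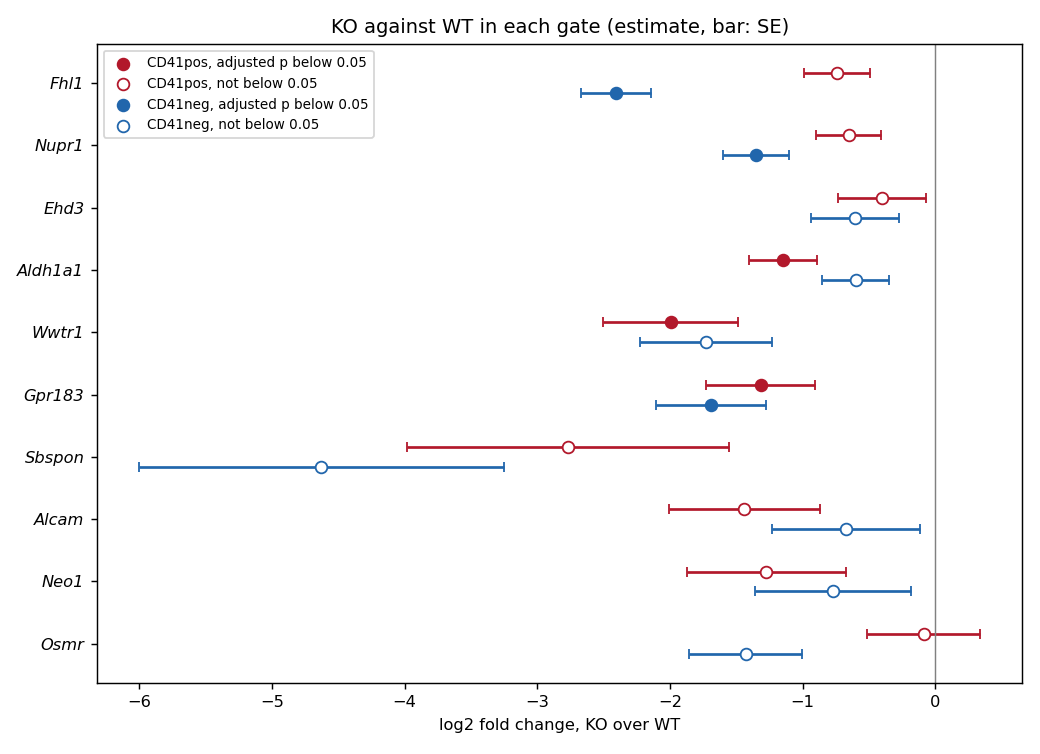
Log2 fold change of KO over WT for each gene in CD41pos (upper point of each pair) and CD41neg cells (lower point), with SE as bars; filled points have an adjusted p below 0.05 in edgeR's quasi-likelihood test. All 20 estimates lie left of 0, from -4.63 for Sbspon in CD41neg to -0.09 for Osmr in CD41pos cells, and 6 are filled.

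Whether the KO effect differed between the gates was tested as an interaction, which called none of the 10 genes and none of the 19395 genes by edgeR (0%). Before adjustment 2 of the 10, Fhl1 and Osmr, had a p below 0.05, as did 5.64% of all genes. For Fhl1 the KO effect in CD41pos minus that in CD41neg cells was log2 1.67 ± 0.35 (adjusted p = 0.515, edgeR), and for Osmr it was 1.34 ± 0.60 (adjusted p = 0.881, edgeR). DESeq2 called Fhl1 (log2 1.69, adjusted p = 0.00260) among 0.371% of all genes. In the fit with 1 WT library per gate Fhl1 was at 2.27 (adjusted p = 0.0176, edgeR), where 17.9% of all genes were called and the WT libraries supply no spread. The other adjusted p-values of Fhl1 over the alternatives ran up to 1.00. The calls of Aldh1a1 and Wwtr1 in CD41pos and of Fhl1 and Nupr1 in CD41neg cells alone thus do not show that these genes responded differently in the gates.

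The genes varied together in part. Over the 12 libraries, on log2(CPM + 0.5), Nupr1 and Fhl1 correlated at r = 0.97, Gpr183 and Wwtr1 at 0.92, Sbspon and Wwtr1 at 0.85, Alcam and Wwtr1 at 0.84, and Ehd3 with Fhl1 at 0.81. Within groups, after the group means were taken out, Nupr1 and Fhl1 were at 0.56, Gpr183 and Wwtr1 at 0.65, Sbspon and Wwtr1 at 0.42, Alcam and Wwtr1 at 0.76, and Ehd3 and Fhl1 at -0.15. The highest within groups was Nupr1 with Wwtr1 at 0.83, and Fhl1 with Wwtr1 was at 0.73, while Nupr1 and Ehd3 were at 0.79 over all libraries and at -0.17 within groups. These values describe 12 libraries that share gate and genotype and carry no test. Among all genes of at least 5 CPM on average, the 2 nearest to each gene were Tbxa2r (0.99) and Fhl1 (0.97) for Nupr1, Nupr1 (0.97) and Pdia5 (0.97) for Fhl1, and Rhebl1 (0.94) and Mapkapk2 (0.92) for Ehd3. For Wwtr1 they were Ctsw (0.97) and Pde1b (0.96), for Gpr183 Dennd6b (0.94) and Tmem8 (0.91), and for Sbspon Pxn (0.94) and Rsad1 (0.92). For Alcam they were Atp1b1 (0.94) and Klf12 (0.94), for Neo1 Acss2 (0.92) and Ttc38 (0.91), for Osmr Araf (0.90) and Smyd5 (0.90), and for Aldh1a1 Bbc3 (0.90) and Col1a2 (0.88).

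The stromal markers moved with genotype in the same direction as the genes that separate KO from WT. Their summed level was 28.6 to 36.7 CPM in CD41pos KO against 203 to 389 CPM in CD41pos WT, and 28.8 to 42.9 CPM in CD41neg KO against 188 to 868 CPM in CD41neg WT libraries. Of the 10, 5 fell in CD41pos and 6 in CD41neg KO cells, and none rose. Cxcl12, the chemokine of niche cells, was at 9.43 ± 1.47 CPM in CD41pos KO against 90.3 ± 35.3 CPM in CD41pos WT cells. Their sum correlated with Sbspon at r = 0.95, Wwtr1 at 0.91, Gpr183 at 0.82, Aldh1a1 at 0.79 and Alcam at 0.67 over 12 libraries. It correlated at 0.49 with Nupr1, 0.46 with Fhl1 and 0.24 with Ehd3. Markers of B and plasma cells were higher in WT as well, at 51.6 to 98.5 CPM in CD41pos KO against 146 to 648 CPM in CD41pos WT, and at 93.8 to 199 CPM in CD41neg KO against 343 to 3100 CPM in CD41neg WT libraries. Of 6 basophil and mast cell markers 3 fell in each gate, among them Prss34 at 0.634 ± 0.132 CPM in CD41pos KO against 274 ± 131 CPM in CD41pos WT cells. The part of these cells in the lower levels of the 10 genes was not tested.

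**Figure D4:**
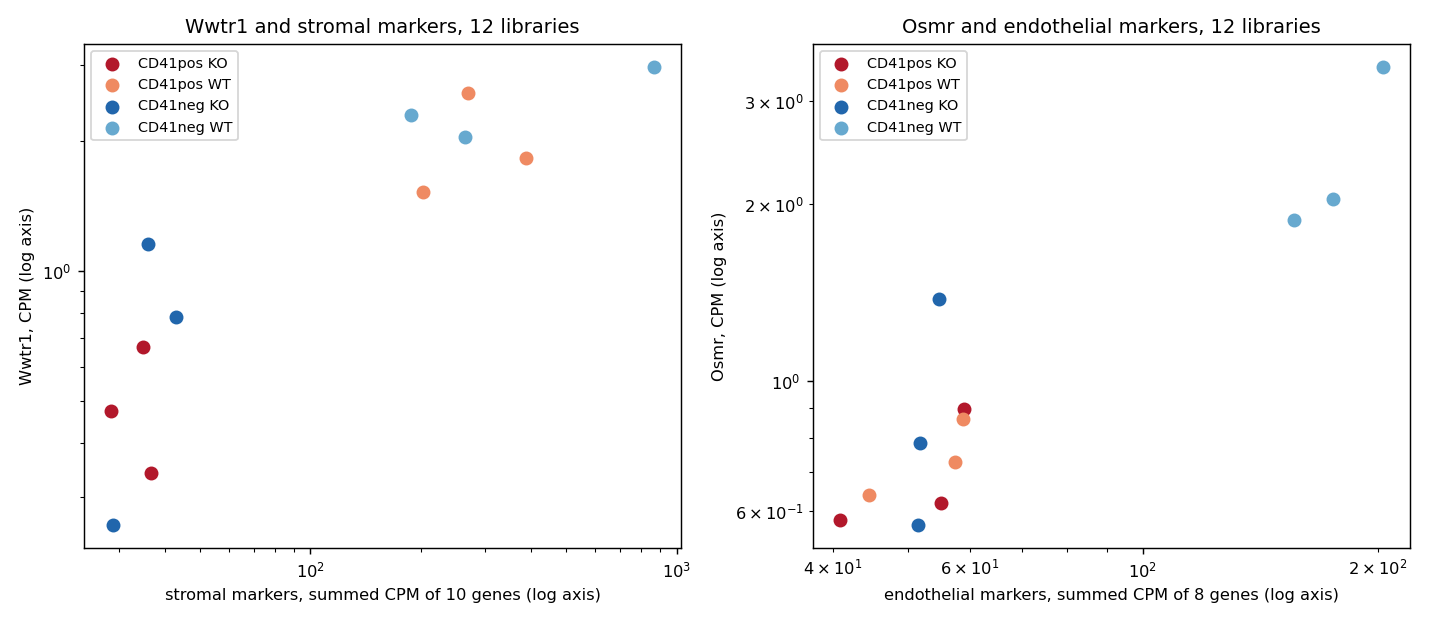
Left, Wwtr1 (CPM) against the summed CPM of 10 stromal markers; right, Osmr (CPM) against the summed CPM of 8 endothelial markers; each point is 1 of 12 libraries and all axes are logarithmic. KO libraries lie low on both axes on the left (28.6 to 42.9 CPM of stromal markers), and on the right the 3 CD41neg WT libraries (156 to 203 CPM of endothelial markers) are apart from the other 9.

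Of 18 other genes linked to HSC ageing, 2 rose and 2 fell in CD41pos and 1 rose and 1 fell in CD41neg KO cells. These counts are near the shares of all genes (9.79% higher and 7.27% lower in CD41pos, 3.85% and 3.97% in CD41neg cells), so they are no result about the list. The list had median log2 fold changes of -0.09 and -0.44. Slamf1, the HSC surface protein CD150, rose in both gates, to 130 ± 8.87 CPM in CD41pos KO against 46.0 ± 13.0 CPM in CD41pos WT and to 73.7 ± 16.3 CPM in CD41neg KO against 24.7 ± 3.37 CPM in CD41neg WT cells (adjusted p = 0.00273 and 0.00318, edgeR). Clu, the secreted chaperone clusterin, was named for its CD41neg value; it rose in CD41pos KO cells (97.9 ± 21.5 against 43.4 ± 2.67 CPM in WT, adjusted p = 0.0499) and fell in CD41neg KO cells (2.94 ± 2.12 against 9.14 ± 1.69 CPM in WT, adjusted p = 0.0290) by edgeR. The metallothionein Mt2 fell in CD41pos KO cells to 6.04 ± 1.84 CPM against 40.0 ± 30.7 CPM in WT cells (adjusted p = 0.00743, edgeR). Between the gates 4 of these 18 were higher and 2 lower in CD41pos KO cells, and 4 were higher and none lower in CD41pos WT cells. Among all genes tested 1.56% were higher and 1.23% lower between the gates in KO, and 2.72% and 2.87% in WT cells. Itgb3, Clu and Vwf, genes of platelet adhesion and clotting or of secreted platelet cargo, were higher in the CD41pos gate of both genotypes, by log2 3.50 ± 0.44, 5.06 ± 0.44 and 3.0 ± 0.50 in KO and 2.81 ± 0.43, 2.25 ± 0.39 and 2.05 ± 0.49 in WT cells (edgeR, adjusted p of at most 0.0302). Fhl1, Nupr1 and Ehd3 had the same gate direction.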

How the data were processed

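Per the labels' protocols, RNA was isolated with the miRNeasy Micro kit and amplified with SMART-Seq v4, which keeps no strand. The submitters' processing notes list the aligner STAR 2.6.1e, the counter featureCounts 1.6.2, cutadapt 1.9.1, FastQC 0.11.7 and the mm10 build. The deposited tables hold raw read counts per gene and TPM values, both made by the authors. From the counts, genes passing edgeR's filterByExpr were fitted in 1 model over all 12 libraries (edgeR 4.0.16, TMM, quasi-likelihood test, Benjamini-Hochberg over 19395 genes, threshold 0.05; R 4.3.3). DESeq2 1.42.0 and limma 3.58.1 (log2(TPM + 1), log2(TPM + 0.1), voom) gave alternatives. Fits were tested on simulated data. Total counts of 44108035 to 58946457 per library set the counting error; replicate pairs differed beyond it, with chi-square per degree of freedom of 15.0 to 262. KO libraries of the same number deviated together across gates (r = 0.44, 0.62 and 0.51 for KO 1, KO 2 and KO 3 over 10206 genes). Deviations from a group mean depend on one another, so a match of KO 2 alone would also raise r for KO 1 and KO 3. These values thus cannot show that KO 1 and KO 3 are rightly paired. For WT, r was 0.11 and -0.51 (WT 3 and WT 4), from group means over libraries of different numbers in the gates.

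The members and gene lists were chosen with earlier results of these data known. All 10 genes are described, with the 2 genes of at least 5 CPM nearest to each by r, and up to 3 genes per list by smallest adjusted p.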

Additional observations from a re-analysis of the deposited data

How the results depend on the processing

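The direction of KO against WT was below 0 in 510 of 520 values of the 10 genes under the alternatives, at 0 in 3 and above 0 in 7. All these fits draw on the same 12 libraries. Some repeat the reported estimate, such as the minimum log2 change of 1 or leaving out a library of the other gate. The share is thus no independent support for the direction. Of the 10 genes, 3 were called for KO against WT in CD41pos cells. In brackets is the share of all genes that the same fit called, 17.1% in the reported one. DESeq2 called 6 (26.0%), a random replicate block with voom 5 (18.0%), the replicate number as a block 1 (4.93%), a term for the 4 low-numbered WT libraries 1 (23.6%), log2(TPM + 1) 1 (12.6%) and log2(TPM + 0.1) 1 (10.8%). None was called by log2(TPM + 1) without a filter, 0 (2.84%), by a minimum log2 change of 1, 0 (0.237%), or without the 4 WT libraries, 0 (39.4%); leaving out 1 library gave 0 to 5. In CD41neg cells 3 were called (7.82%), against 6 by DESeq2 (16%), 6 with the random replicate block (9.17%), 1 without the 4 WT libraries (8.72%), 1 with the minimum change (0.351%) and 0 by log2(TPM + 1) without a filter (2.79%); leaving out 1 library gave 2 to 6. Between gates in KO, 3 were called (2.79%), against 2 with the library-label replicate block (0.804%), 2 in each of the 3 TPM fits (1.32% to 2.58%) and 1 with the minimum change (0.330%); leaving out 1 library gave 2 to 3. Between gates in WT, 4 were called (5.59%), against 2 with only the groups compared (0.980%), 2 with the replicate number as a block (1.95%), 0 with the library-label block (0.217%), 0 without the 4 WT libraries (24.8%), 2 by log2(TPM + 1) (6.02%), 1 by log2(TPM + 0.1) (5.47%), 0 without a TPM filter (1.86%) and 0 with the minimum change (0.196%); leaving out 1 library gave 1 to 4. The interaction called 0, against 1 by DESeq2 (0.371%) and 1 without the 4 WT libraries (17.9%), where no spread comes from WT; leaving out 1 library gave 0 to 0. With Y-linked level as a covariate, 4 were called for KO against WT in CD41pos (16.4%) and 4 in CD41neg cells (7.53%). Gpr183 was not among those in CD41pos cells. The block within KO libraries alone was chosen after seeing the data.

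Signs turned only for uncalled values. With the replicate number as a block, Osmr in CD41pos KO was 0.054, Sbspon between gates in WT 0.030, and the interactions of Ehd3 and Wwtr1 -0.13 and 0.035. With the library-label block, Alcam between gates in WT was 0.22 and the interaction of Ehd3 -0.10. Neo1 was 0.16 and 0.47 with the term, and 0.63 and 0.18 without the 4 WT libraries, where its interaction was 0.44 and the WT gate values of Aldh1a1 and Alcam were -0.12 and 0.19. On log2(TPM + 1) the interaction of Wwtr1 was 0.035 with and without a filter. Leaving out 1 library gave -0.31 to 0.055 for Osmr in CD41pos KO. Between gates in KO it gave -0.40 to 0.026 for Gpr183, -0.80 to 4.69 for Sbspon, -0.57 to 0.033 for Aldh1a1 and -0.63 to 0.049 for Osmr. Between gates in WT it gave -0.73 to 0.42 for Sbspon, -0.028 to 0.31 for Aldh1a1 and -0.39 to 0.13 for Alcam. For interactions it gave -0.056 to 0.54 for Ehd3, -0.57 to 4.93 for Sbspon and -0.67 to 0.23 for Wwtr1. The cause of these shifts was not tested. Sbspon, with at most 9 counts in a KO library, is limited by depth. The median of all genes moved by 0.13 in CD41pos cells on log2(TPM + 1), by 0.19 and 0.15 on log2(TPM + 0.1) in CD41pos and CD41neg cells, and by 0.10 in CD41neg cells without a count filter.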
